A study of Rattus norvegicus with 9 samples.

Results

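Solute carriers are the membrane proteins that move amino acids, sugars, ions, metals, vitamins, nucleosides and transmitters into and out of cells and vesicles, and their gene names begin with Slc. They work by facilitated diffusion, by exchange, or by coupling the movement of their substrate to a gradient of sodium, protons or chloride. In blood mononuclear cells, amino acid carriers are known to serve the growth of activated lymphocytes, and metal and peptide carriers the endosomes and lysosomes of myeloid cells.

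The expression of 170 probes for 136 solute carrier genes was compared in peripheral blood mononuclear cells (PBMC, the lymphocytes and monocytes collected on a Ficoll gradient) of rats on a cafeteria diet and rats on chow. The probes were chosen by name, beginning with Slc and a digit, and by signal, with Cy5 well above background on at least 4 of 9 arrays, so detection itself is part of how they were selected. Mitochondrial carriers (Slc25), fatty acid transport proteins (Slc27) and 8 single genes of sugar, lactate, iron, carnitine and red cell transport (Slc2a1, Slc2a3, Slc4a1, Slc11a1, Slc16a1, Slc16a3, Slc22a5 and Slc40a1) were left out. Of 289 such probes (234 genes) on the array, 84 were above background on 0 arrays and 146 on all 9 arrays, and 98 genes had no probe that passed. The whole comparison ran over 25801 probes out of 41012.

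All animals were male Wistar rats aged 6 months, bled from the leg vein in the fed state into heparin. In the cafeteria group, 5 rats had eaten a fat-rich, energy-dense cafeteria diet beside chow for 4 months, starting at the age of 2 months, a treatment that makes rats obese. In the control group, 4 rats had eaten standard chow alone over the same time, and the submitters left out 1 further control for too little RNA. Each array carried Cy5-labelled RNA from 1 rat and a Cy3-labelled pool of all samples, so every value below is a log2 ratio to that pool, and every difference is cafeteria minus control on the log2 scale. Such ratios are not set against each other between probes.

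Markers of the labelled cells were detected, with all 3 defining markers of T cells (19 of 20 markers) and of monocytes (11 of 14). So were 2 of 3 defining B cell markers (10 of 13), the other, Cd79a, not being analysed here. Markers of platelets (8 of 15, all 3 defining), neutrophils (6 of 12, 2 of 3 defining) and erythroid cells (13 of 20, 1 of 3 defining) were also found. Detection alone therefore does not test the label of the cells. The share of spots with Cy5 well above background ran from 58.8% (cafeteria rat 1) to 66.7% (control rat 7), and between 152 and 169 of the 170 probes were detected on a given array. In a blood sample, fewer cells of a type and less RNA per cell cannot be told apart. The gene set, named for plasma membrane and vesicle carriers, is wider than that name. In it, 16 of the probes are named for the Slc33 and Slc35 families, which load the Golgi apparatus and endoplasmic reticulum. Slc37a4, given below, also serves the endoplasmic reticulum. A pair of probes are for genes that are not carriers at all, Slc9a3r1 (a scaffold now named Nherf1) and Slc4a1ap (an adaptor). A probe named Slc35b2 in the files matched Nfkbie in the RefSeq annotation by its accession, so it stays in the counts and class medians by its name, but its own value is not described.

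No solute carrier passed the adjusted threshold. By limma with Benjamini-Hochberg adjustment, 0 of 170 probes had an adjusted p under 0.05, as had 0% of all 25801 probes, and the lowest adjusted p of a solute carrier was 0.401 (Slc39a14). At an unadjusted p under 0.05 there were 6 of 170 probes (3.53%), against 5.71% of all probes tested. Of these, 3 were higher (1.76% of the solute carriers, against 1.90% of all) and 3 lower (1.76% against 3.82%). In order of p these were Slc39a14, Slc28a2, Slc14a1, Slc4a4, Slc4a2 and Slc43a1, and the unadjusted p of the last 5 lay between 0.0254 and 0.0437. At an unadjusted p under 0.01 there was 1 solute carrier (0.588%, against 1.65% of all). The same probe was the only one of the 170 whose groups did not overlap (0.588%), against 2.14% of all probes and 1.26% for those lower in cafeteria rats.

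The differences were small as a rule. Their median was 0.02 over the solute carriers and 0.0069 over all probes, and they ran between -0.85 and 0.38. Of the 170, 102 (60.0%) lay above 0, against 52.6% of all probes. In the authors' deposited table, which covers 123 of the probes and whose differences are shifted upward as a whole (median 0.13 over 20164 probes), 78.9% of the solute carriers and 76.6% of all probes lay above 0. With the background-corrected ratios centred on each array's median and not against intensity, these shares were 68.8% and 65.1%. They were 52.0% and 51.5% in the authors' values after centring and 50.6% and 51.2% without control rat 7. With slide as a block, which compares the diets only within the 2 slides that held both, they were 46.5% and 49.5%. The excess of positive differences thus depends on the scaling and on which rats are compared. A total of 158 solute carrier probes (92.9%) differed by less than 0.25, against 91% of all probes. For 151 of the 170 (88.8%, against 83.7% of all) the whole 95% interval of the difference lay inside 0.5 in either direction, and the median interval reached 0.21 to either side. Rats of one group varied with a median SD of 0.14 per solute carrier, against 0.15 over all probes.

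**Figure D1:**
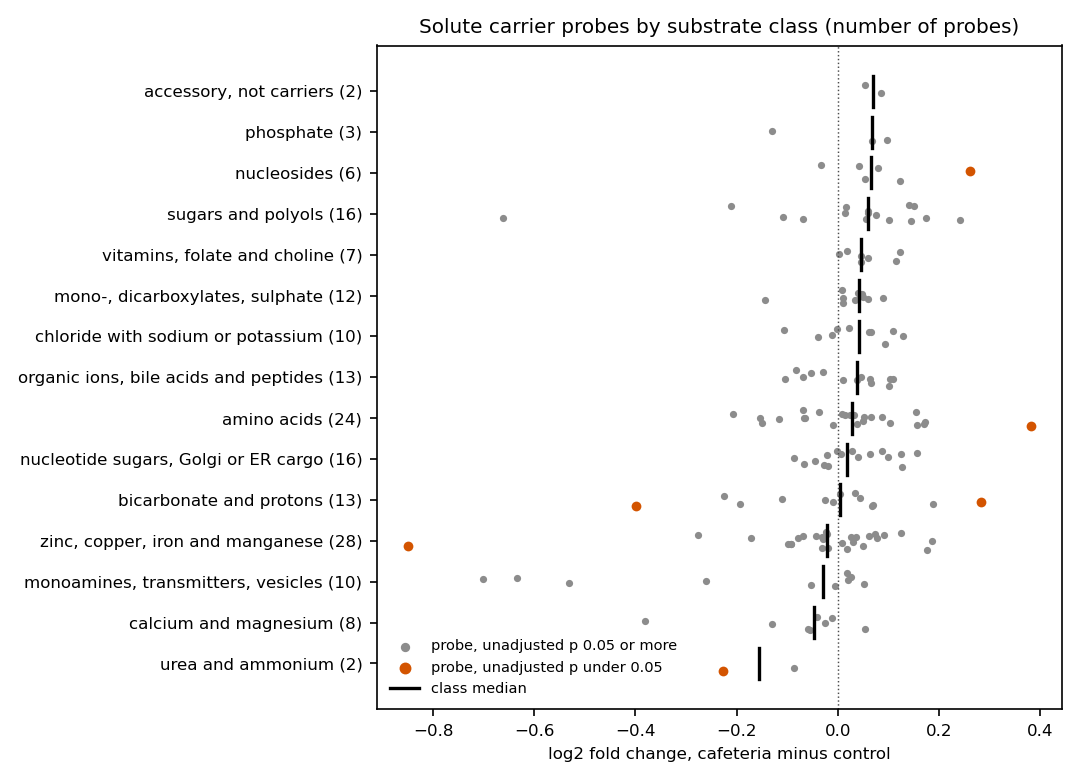
Log2 fold change of each of the 170 solute carrier probes (points, cafeteria minus control) by substrate class, with the class median as a black bar. The 6 orange probes have an unadjusted p under 0.05, the lowest is Slc39a14 at -0.85, and most other points lie within 0.25 of 0.

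The substrate classes were assigned by family, so that single members with another substrate, such as the vitamin carrier Slc5a6 among the sugar carriers, stand with their family. Detection differed between them. Most probes for carriers of zinc, copper, iron and manganese were detected (28 of 33, 84.8%), as were 16 of 20 for Golgi and endoplasmic reticulum cargo (80%). By contrast, 24 of 52 amino acid carrier probes (46.2%), 10 of 22 for monoamines and transmitters (45.5%) and 3 of 8 for phosphate (37.5%) were above background. Class medians ran from -0.16 (urea, 2 probes) to 0.07 (the accessory genes, 2 probes). Under 8 other ways of scaling the values, the median kept its sign in 9 of 15 classes and changed it in 6, among them the metal, calcium and phosphate carriers, so the classes are described by their members.

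Carriers of zinc, copper, iron and manganese include the solute carrier furthest apart between the diets. Slc39a14 encodes ZIP14, an importer of zinc, manganese and non-transferrin iron that is induced by inflammatory signals in liver, and its probe lies on chromosome 15, 50709260 to 50709828 (rn4). Its log2 ratios in cafeteria rats 1, 4, 7, 10 and 13 were -0.25, -0.17, -0.58, -0.84 and -0.86, against 0.66, 0.01, 0.35 and 0.21 in control rats 1, 4, 7 and 13. All 5 cafeteria rats lay below all 4 controls, with the nearest pair 0.17 below and 0.01 above the pool. The means were -0.54 ± 0.32 (SD, n = 5) in cafeteria rats and 0.31 ± 0.27 (SD, n = 4) in control rats, a difference of -0.85 (SE 0.17, 95% interval -1.24 to -0.46), or 0.555 of the control level. The limma p was 0.000569 unadjusted and 0.401 adjusted over all probes. On the 2 slides that held both diets the differences were -0.91 and -1.06. A second probe for Slc39a14 (50705817 to 50705876) was above background on only 2 arrays and differed by -0.06, so a single probe carries this result.

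The remaining metal carriers showed no such gap. Slc39a4, an intestinal zinc importer, averaged -0.10 ± 0.15 in cafeteria rats (SD, n = 5) and 0.07 ± 0.10 in control rats (SD, n = 4), a difference of -0.17 (SE 0.09, adjusted p = 0.949), and the groups overlapped. The 3 probes of Slc30a5, a zinc exporter of the secretory pathway, differed by -0.03, 0.02 and 0.06 with SEs of 0.09, 0.09 and 0.14. Outside Slc39a14 the metal carriers ran from -0.28 (Slc39a6, a zinc importer) to 0.19 (Slc30a4, a zinc exporter), and none of those 27 probes had an unadjusted p under 0.05. The 28 probes held 13 above and 15 below 0, with a median of -0.02, and under median centring 20 and 8 with a median of 0.06. Among genes that respond to metals and oxidants, Mt1a (a metallothionein) differed by 0.09 and 0.08 on its 2 probes and Mtf1, the metal-sensing transcription factor, by 0.14 (SE 0.08, adjusted p = 0.955).

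The levels of the blood cell marker lists are given beside Slc39a14, which is known from myeloid cells among others. The monocyte list averaged -0.57 to 0.35 in cafeteria rats and -0.41 to 0.25 in control rats, and the neutrophil list -0.31 to 0.30 in cafeteria rats and -0.26 to 0.13 in control rats. The mean of 19 detected T cell markers was 0.07, -0.02, -0.17, -0.28 and -0.45 in cafeteria rats 1, 4, 7, 10 and 13, against 0.08, -0.22, -0.08 and 0.07 in control rats 1, 4, 7 and 13. Like Slc39a14, it was lowest in rats 10 and 13 of the cafeteria group, and among controls highest in rat 1 and lowest in rat 4. Unlike Slc39a14, which in control rat 4 lay above all cafeteria rats, the list in that control lay below cafeteria rats 1, 4 and 7. The B cell list averaged -0.24 to 0.40 in cafeteria rats and -0.28 to 0.26 in control rats, and the cytotoxic T and NK cell list -0.17 to 0.44 in cafeteria rats and -0.38 to -0.09 in control rats. All 5 lists overlapped between the diets, and their part in the Slc39a14 difference was not tested.

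**Figure D2:**
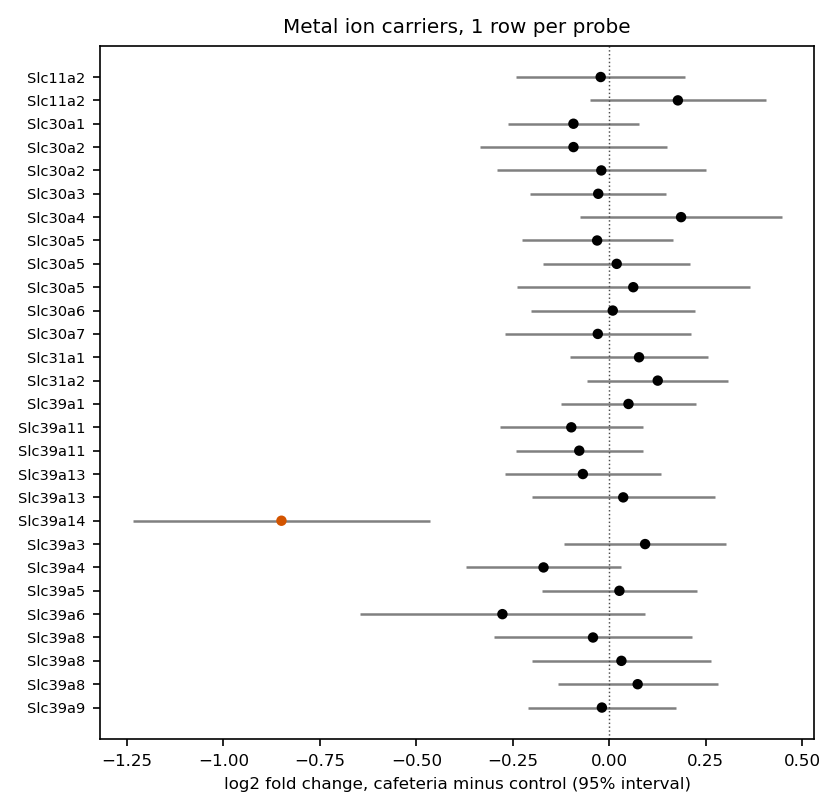
Log2 fold change (points, cafeteria minus control) of the 28 detected probes for metal ion carriers, with 95% intervals as lines and 1 row per probe. The interval of Slc39a14 runs from -1.24 to -0.46, and those of the other 27 probes cross 0.

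Nucleoside carriers salvage adenosine, uridine and their relatives and also take up nucleoside drugs. Slc28a2, the sodium-coupled carrier of purine nucleosides (chromosome 3, 109355909 to 109355968), stood at -0.02, 0.08, 0.04, 0.13 and -0.27 in cafeteria rats 1, 4, 7, 10 and 13, against -0.39, -0.36, -0.25 and -0.07 in control rats 1, 4, 7 and 13. All cafeteria rats but rat 13 lay above all controls. The difference was 0.26 (SE 0.10, adjusted p = 0.763), with 0.38 and 0.20 within the 2 shared slides. Its second probe differed by 0.12 (SE 0.12, adjusted p = 0.983), with overlapping groups. The equilibrative carriers Slc29a1 (0.05, SE 0.11) and Slc29a3, which sits in lysosomes (0.08, SE 0.07), overlapped between the diets, with adjusted p = 0.988 and 0.983.

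Urea carriers are known from the kidney and from red cells, where Slc14a1 lets urea cross the membrane quickly. Slc14a1 (chromosome 18, 75024357 to 75024416) was at -0.02, 0.02, -0.22, -0.13 and -0.10 in cafeteria rats 1, 4, 7, 10 and 13, against 0.26, -0.08, 0.26 and 0.11 in control rats 1, 4, 7 and 13. Only control rat 4 fell among the cafeteria rats. The difference was -0.23 (SE 0.09, adjusted p = 0.789), and it was -0.28 and -0.24 within the shared slides. The erythroid marker list (13 of 20 detected, 1 of 3 defining markers) averaged -0.35 to -0.06 in cafeteria rats and -0.47 to -0.26 in control rats, the opposite direction to Slc14a1. Its part was not tested. Slc14a2, the kidney urea carrier, differed by -0.09 (SE 0.07, adjusted p = 0.971).

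Carriers of bicarbonate and protons set the pH of the cell. The median of their 13 probes was 0.0037, and 2 of them, of opposite sign, had an unadjusted p under 0.05. Slc4a4, a sodium bicarbonate cotransporter (chromosome 14, 20382443 to 20382502), was at 0.29, 0.23, -0.17, -0.24 and -0.52 in cafeteria rats 1, 4, 7, 10 and 13, against 0.21, 0.31, 0.62 and 0.13 in control rats 1, 4, 7 and 13. Cafeteria rats 1 and 4 lay within the control range and the other 3 below it, a difference of -0.40 (SE 0.17, adjusted p = 0.838). Within the shared slides it was 0.07 and -0.37, so the direction differed between them. The cafeteria rats fell in the same order for Slc4a4 as for the T cell marker list given above, which averaged -0.17 in cafeteria rats and -0.04 in control rats. The control rats did not. From highest to lowest they ran 7, 4, 1 and 13 for Slc4a4 and 1, 13, 7 and 4 for the list. The part of that list in the difference was not tested.

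Slc4a2, a chloride bicarbonate exchanger (chromosome 4, 6101493 to 6101552), was at -0.45, 0.02, -0.05, -0.06 and -0.20 in cafeteria rats 1, 4, 7, 10 and 13, against -0.40, -0.33, -0.74 and -0.24 in control rats 1, 4, 7 and 13. Cafeteria rat 1 fell among the controls and the other 4 above them. The difference was 0.28 (SE 0.12, adjusted p = 0.851), with -0.05 and 0.19 within the shared slides. Slc4a7, another sodium bicarbonate cotransporter, known in macrophages for its part in phagosome acidification, averaged -0.19 ± 0.16 in cafeteria rats (SD, n = 5) and 0.04 ± 0.16 in control rats (SD, n = 4), a difference of -0.23 (SE 0.10, adjusted p = 0.874).

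**Figure D3:**
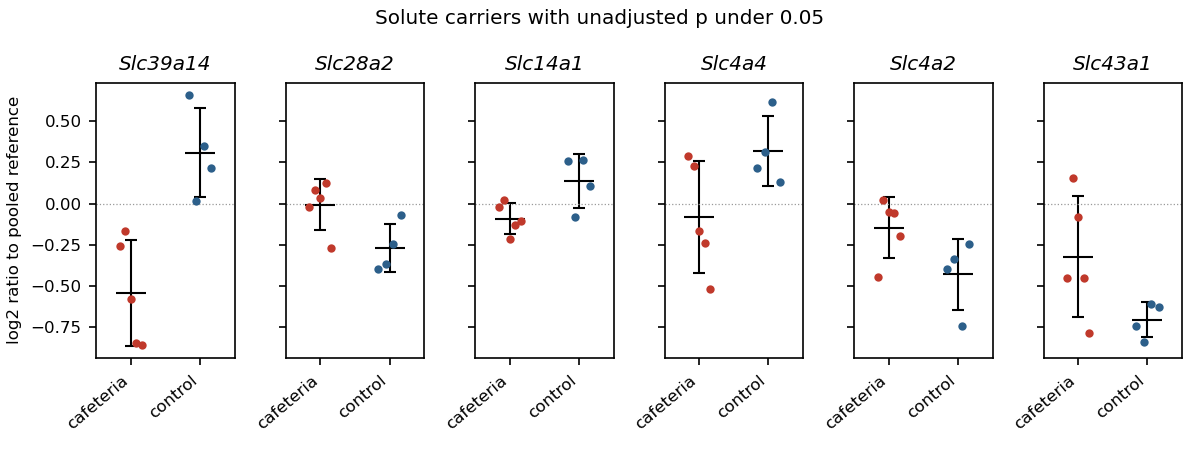
Log2 ratio to the pooled reference of each rat (points; red cafeteria, n = 5; blue control, n = 4) for the 6 solute carriers with an unadjusted p under 0.05, with mean and SD in black. The groups are apart for Slc39a14 alone, and for each other gene at least 1 rat lies within the range of the other diet.

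Amino acid carriers feed the growth of activated lymphocytes, and the pair Slc7a5 and Slc3a2 (CD98) brings in leucine and other large neutral amino acids. Of 24 probes, 15 lay above and 9 below 0 with a median of 0.03. The one probe whose unadjusted p was under 0.05 was Slc43a1, a sodium-independent carrier of branched-chain amino acids (chromosome 3, 68083249 to 68083308). It was at -0.45, 0.16, -0.08, -0.45 and -0.79 in cafeteria rats 1, 4, 7, 10 and 13, against -0.74, -0.84, -0.61 and -0.63 in control rats 1, 4, 7 and 13. The controls lay close together, and cafeteria rat 13 lay among them while the other 4 were higher. The difference was 0.38 (SE 0.17, adjusted p = 0.851), with 0.30 and 0.17 within the shared slides.

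The best known lymphocyte carriers of this class did not separate the diets. Slc3a2, the heavy chain, averaged -0.33 ± 0.21 in cafeteria rats (SD, n = 5) and -0.13 ± 0.24 in control rats (SD, n = 4), a difference of -0.21 (95% interval -0.50 to 0.09). Its partner Slc7a5 averaged -0.12 ± 0.17 in cafeteria rats (SD, n = 5) and 0.04 ± 0.10 in control rats (SD, n = 4), a difference of -0.15 (95% interval -0.37 to 0.06). The glutamine carrier Slc1a5 differed in the other direction, by 0.17 (95% interval -0.07 to 0.41), and Slc7a7, the light chain that exports basic amino acids, by 0.16 (-0.10 to 0.41). All 4 had an adjusted p of 0.971.

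The sodium-coupled glutamine carriers Slc38a1 (-0.07, SE 0.09) and Slc38a2 (0.15 and -0.07 on its 2 probes, SE 0.09 and 0.08) overlapped between the diets, and the 2 probes of Slc38a2 did not share a sign. Slc36a4, an amino acid carrier of the proton-assisted family, had a difference of 0.17 (SE 0.09, adjusted p = 0.949), and the taurine carrier Slc6a6 one of 0.02 (SE 0.13). The cystine carrier Slc7a11 and the basic amino acid carrier Slc7a6 were not above background on 4 arrays.

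**Figure D4:**
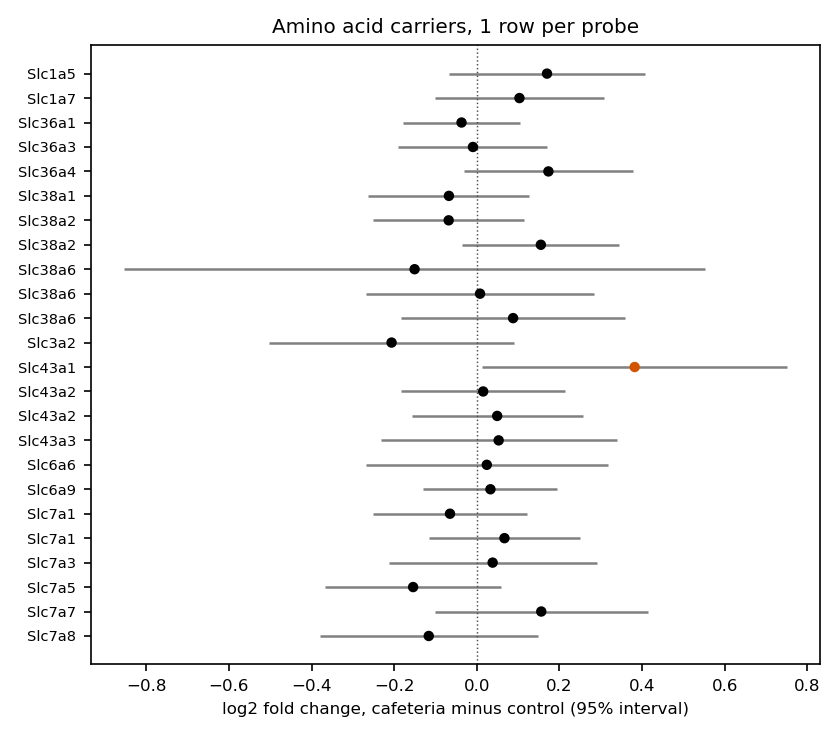
Log2 fold change (points, cafeteria minus control) of the 24 detected probes for amino acid carriers, with 95% intervals as lines and 1 row per probe. The interval of Slc43a1 (orange) runs from 0.01 to 0.75, and the other 23 cross 0.

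The class of monoamine and transmitter carriers had the highest median SD within a diet (0.25). Its wide probes were those of Slc6a4 and Slc18a2, and the other probes of the class had SDs of 0.08 to 0.29. Slc6a4, the serotonin transporter with which platelets take up serotonin from plasma (chromosome 10, 67140063 to 67140122 and 67146727 to 67146786), was measured by 2 probes. The first was at -1.20, -0.37, -1.03, 0.25 and -0.81 in cafeteria rats 1, 4, 7, 10 and 13, against 0.36, 0.84, -0.97 and 0.04 in control rats 1, 4, 7 and 13. Cafeteria rat 10 lay with the higher controls and control rat 7 with the lower cafeteria rats. The difference was -0.70 (SE 0.37, 95% interval -1.52 to 0.12, adjusted p = 0.949) on this probe and -0.63 (SE 0.39, adjusted p = 0.97) on the second. Within the shared slides the first gave -1.57 and 0.21, opposite in direction.

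Slc18a2, the vesicular monoamine transporter that loads serotonin into platelet dense granules, gave differences of -0.53 (SE 0.29) and -0.26 (SE 0.27) on 2 probes, with adjusted p = 0.954 and 0.983. Its first probe was at -0.61, -0.36, -1.06, 0.23 and 0.40 in cafeteria rats 1, 4, 7, 10 and 13, against 0.19, 0.83, 0.05 and -0.07 in control rats 1, 4, 7 and 13. Cafeteria rats 1, 4 and 7 lay below all controls, and rats 10 and 13 among them. The other probes of the class lay between -0.05 and 0.05.

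The probes with the largest SD within a diet were an Slc2a4 probe (0.803), both Slc6a4 probes (0.702 and 0.669), Slc24a5 (0.578), a probe of Slc38a6 (0.569), a probe of Slc24a3 (0.554) and an Slc18a2 probe (0.525). Slc2a4 is the insulin-responsive glucose transporter GLUT4 (chromosome 10, 56786861 to 56786920), and Slc24a3 is a potassium-dependent sodium calcium exchanger. Both are described here after their values were seen, and not by spread alone. Slc24a5 and the Slc38a6 probe varied more than Slc24a3 and are given under other observations. Slc2a4 was at -1.22, -0.88, -1.22, 0.13 and 0.19 in cafeteria rats 1, 4, 7, 10 and 13, against -0.49, 1.39, -0.60 and -0.05 in control rats 1, 4, 7 and 13, a difference of -0.66 (SE 0.45, adjusted p = 0.971). Slc24a3 was at -0.55, 0.02, -0.63, 0.41 and 0.31 in the same cafeteria rats, against -0.19, 1.21, -0.10 and 0.25 in the same controls, a difference of -0.38 (SE 0.31, adjusted p = 0.975). In both genes control rat 4 was the highest and cafeteria rats 1 and 7 the lowest.

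The mean of 8 detected platelet markers followed the same order of rats at both ends. It was -0.77, -0.24, -0.91, 0.27 and 0.18 in cafeteria rats 1, 4, 7, 10 and 13, against -0.25, 1.27, -0.47 and 0.04 in control rats 1, 4, 7 and 13. All 3 defining markers (Pf4, Ppbp and Gp9) were detected. Slc6a4 departed from the list in cafeteria rat 13 and in control rat 1. Slc24a5 had the same highest and lowest rat as the list but was at 0.34 in cafeteria rat 1. The wide-ranging Slc38a6 probe departed from the list in cafeteria rat 10 (-0.66) and control rat 1 (0.76). The part of platelet RNA in these differences was not tested. A second Slc2a4 probe differed by -0.21 (SE 0.15) and a second Slc24a3 probe by -0.04 (SE 0.09).

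**Figure D5:**
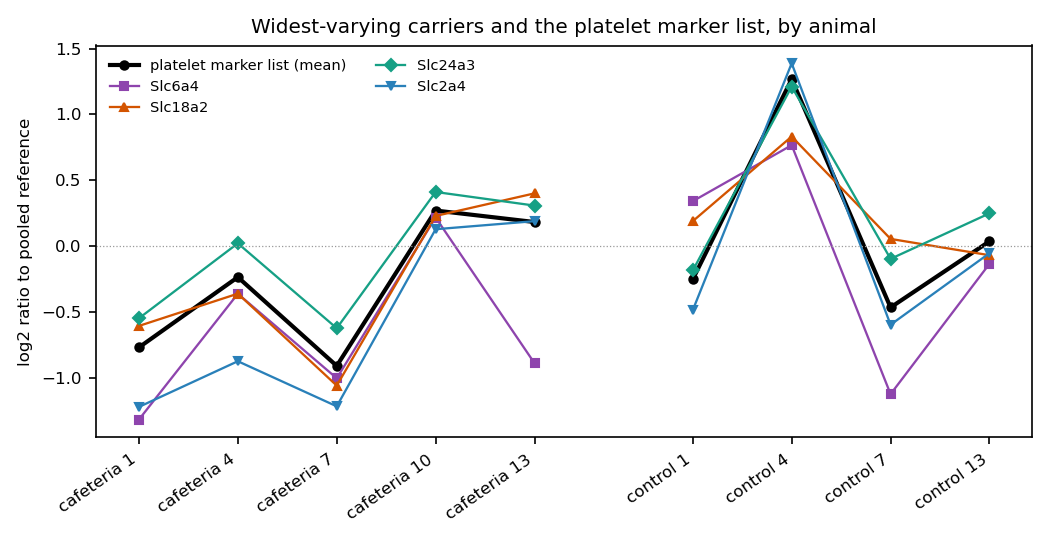
Log2 ratio to the pooled reference in each rat for the probe of largest spread of Slc6a4, Slc18a2, Slc24a3 and Slc2a4, with the mean of 8 platelet markers in black. Slc24a5 and Slc38a6, whose widest probes varied more than that of Slc24a3, are not drawn. Control rat 4 is the highest of all rats in each line, with the list mean at 1.27, and the list mean is lowest in cafeteria rat 7 at -0.91.

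Sugar and polyol carriers were detected with 16 of 31 probes, 12 above and 4 below 0 (median 0.06; 8 and 8 with slide as a block), and 0 of the 16 were under an unadjusted p of 0.05. Slc2a8, an intracellular glucose transporter, averaged 0.03 ± 0.09 in cafeteria rats (SD, n = 5) and -0.14 ± 0.13 in control rats (SD, n = 4), a difference of 0.18 (SE 0.08, adjusted p = 0.896). Slc37a4, which carries glucose 6-phosphate into the endoplasmic reticulum and is needed by neutrophils in humans, differed by 0.15 (SE 0.09) and 0.14 (SE 0.11) on overlapping probes. In both its probes control rat 1 was the lowest of all rats, at -0.34 and -0.32.

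Monocarboxylate, dicarboxylate and sulphate carriers lay above 0 in 11 of 12 probes, with a median of 0.04, but in 9 of 12 with Cy5 alone or the scanner software's ratio and in 6 of 12 with slide as a block (median -0.0034). The exception was Slc13a2, a citrate and succinate carrier of the kidney, at -0.14 (SE 0.08, adjusted p = 0.949), which turned to 0.15 with Cy5 alone and 0.01 in the authors' deposited table. The largest of the others was the sulphate and chloride exchanger Slc26a8, known from the testis, at 0.09 (SE 0.09). Vitamin, folate and choline carriers lay above 0 in all 7 probes (5 of 7 with Cy5 alone or the scanner software's ratio, 4 of 7 with slide as a block), between 0.0032 and 0.12. The reduced folate carrier Slc19a1, which also imports methotrexate, differed by 0.02 (95% interval -0.15 to 0.19). The thiamine carrier Slc19a2 differed by 0.12 and 0.05 on its 2 probes, the latter above background on just 4 arrays. Slc23a3, of the ascorbate carrier family, differed by 0.12 (SE 0.09) and was above background on 4 arrays, 1 of them a control. No probe of either class had an unadjusted p under 0.05, and no test was made of a class.

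Chloride cotransporters set cell volume, and their 10 probes ran from -0.11 to 0.13. The sodium potassium chloride importer Slc12a2 differed by -0.04 (SE 0.11), the potassium chloride exporter Slc12a4 by 0.09 (SE 0.09) and Slc12a9 by 0.11 (SE 0.10). Slc12a7 was covered by 5 probes, which ran from -0.11 to 0.07 and so give the spread between probes of one gene. The calcium exchanger Slc8a1, above background on just 5 of 9 arrays, differed by 0.05 (SE 0.08). It was the only one of 8 calcium and magnesium carrier probes above 0, and of the 7 probes detected on all 9 arrays, 0 were. Of the 8, 3 were above 0 under median centring, 4 without control rat 4 and 6 with normexp fitted on all spots. The phosphate carriers Slc20a1 (-0.13 and 0.07 on its 2 probes) and Slc20a2 (0.10, SE 0.10) had adjusted p = 0.983.

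Of the organic ion and peptide carriers, Slc15a3 and Slc15a4 bring peptides out of the lysosome and serve innate sensing in myeloid cells. Slc15a3 differed by 0.10 (SE 0.16), with cafeteria rat 1 (-0.54) and control rat 7 (-0.40) the lowest in their groups, and the 2 probes of Slc15a4 differed by 0.07 and 0.05. Slc22a12, a kidney urate carrier, gave 0.11 and -0.10 on its 2 probes, and Slc10a5, of the bile acid carrier family, gave 0.10 (SE 0.09). Among Golgi carriers, the GDP-fucose carrier Slc35c1, which is needed to make selectin ligands on leukocytes, differed by 0.10 (SE 0.07), and the nucleotide sugar carrier Slc35d2 by 0.12 (SE 0.10). The adjusted p of these genes lay between 0.971 and 0.99. The accessory genes Slc4a1ap and Slc9a3r1 differed by 0.09 (SE 0.08) and 0.05 (SE 0.12).

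Where several probes were named for the same gene, their differences gave a spread between probes, the source of which was not tested. Of 28 such genes, 16 had all probes on the same side of 0 and 12 did not. The gap between the highest and lowest probe had a median of 0.08 and reached 0.45 (Slc2a4). At the edge of detection, the 6 probes above background on just 4 arrays differed by -0.07 to 0.12, and the 8 probes on 3 arrays, which were left out, by -0.50 (a probe of Slc5a2, a sodium glucose carrier) to 0.19 (Slc17a7, a vesicular glutamate carrier).

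Genes that partner with or act on solute carriers were taken from a list of 71. Of these, 49 were detected, with 59 probes, 32 above and 27 below 0 and a median of 0.0067. None passed the adjusted threshold, and 3 of the 59 (5.08%, against 5.71% of all probes) had an unadjusted p under 0.05, Rragd and Tfeb with positive and Wnk1 with a negative difference. Rragd, a GTPase that signals amino acid supply to mTORC1 at the lysosome, averaged 0.19 ± 0.22 in cafeteria rats (SD, n = 5) and -0.17 ± 0.07 in control rats (SD, n = 4), a difference of 0.35 (SE 0.11, adjusted p = 0.579). Tfeb, the transcription factor of lysosome genes, averaged -0.18 ± 0.08 in cafeteria rats (SD, n = 5) and -0.36 ± 0.07 in control rats (SD, n = 4), a difference of 0.18 (SE 0.07, adjusted p = 0.79). Wnk1, the kinase that switches chloride cotransporters, averaged -0.31 ± 0.14 in cafeteria rats (SD, n = 5) and -0.05 ± 0.06 in control rats (SD, n = 4), a difference of -0.27 (SE 0.08, adjusted p = 0.595). Wnk1 was at -0.30, -0.17, -0.38, -0.19 and -0.52 in cafeteria rats 1, 4, 7, 10 and 13. In control rats 1, 4, 7 and 13 it was at -0.03, -0.06, -0.12 and 0.02. Its groups did not overlap, as was so for 2.14% of all probes and, lower in cafeteria rats, for 1.26%. The values given for Rragd, Tfeb and Wnk1 are of 1 probe each. The second Tfeb probe differed by 0.16 (SE 0.10) and the other Wnk1 probes by -0.03 and -0.01. The carrier partners on the list (13 of 17 detected), among them basigin and the sodium pump subunits, held no probe with an unadjusted p under 0.05.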

How the data were processed

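Cy5 and Cy3 spot intensities, as mean signal and median local background, were read from scanner files deposited by the authors, written without normalization by Agilent Feature Extraction 9.5.1.1 per the file headers. The same deposited files hold the software's log10 ratio of Cy5 over Cy3 after background subtraction and dye normalization, per the file headers, which was an alternative here. A table deposited by the authors gives log2 values for 21466 of 45220 spots. Spots ranked in it much as by Cy5 signal on the same array (rank correlation 0.993 to 0.999), and it was taken for a Cy5 level. Its array medians were 9.35 to 9.65. Its centring and the way the reference entered it are unknown. Gene names are those of the array design, of which 115 of 170 matched RefSeq (GRCr8) by accession, 2 of them under another symbol. Positions are on rn4, per the file headers. No probe sequence was used here.

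Normexp (offset 50) removed the local background, and loess then centred the log2 ratios of every array against intensity, control spots carrying weight 0 (limma 3.58.1, statmod 1.5.0 and the data.table package 1.17.8, in R 4.3.3). Spots marked as non-uniform or as outliers in signal or local background were left out of the normexp fit and of the probe averages. They still entered the loess fit. This was decided after seeing the data. With all spots in the fit, the log ratios of cafeteria rat 4 and control rat 4 had interquartile ranges of 0.048 and 0.0473, against 0.219 and 0.278 with all marked spots left out. On these arrays 7 and 4 spots, all of them marked, had a local background more than 50 units above their signal, as had 2 to 8 spots on 4 other arrays. That version was kept as an alternative. Spots of a probe were averaged, and probes with Cy5 well above background on at least 4 arrays were tested (25801 of 41012).

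The diets were compared by limma's moderated test, which had 3.43 prior beside 7 residual degrees of freedom. P-values were adjusted by the Benjamini-Hochberg method across the 25801 probes. The fit was tested on simulated data. Arrays give no counts, and their number (5 and 4) limits the precision. Slides come from the file headers, and 7 slides held the 9 arrays. Only 2 slides held both diets, with cafeteria rat 1 and control rat 1, and cafeteria rat 10 and control rat 13. A slide block therefore compares the diets on those arrays alone, and the other rats add nothing to that difference. Members, lists and substrate classes were chosen with earlier results of these data known. Genes were named where the unadjusted p was under 0.01 or the groups did not overlap, as the 2 of smallest p per class, from a list of 24 carriers known in blood cells (19 detected, 2 not, 3 not analysed here), and, among partner genes, at an unadjusted p under 0.05. Of the named genes, 1 is not reported here. The alternatives were other background corrections, scalings, filters and priors, slide or replicate number as a block, and each rat left out in turn. Figures were drawn with Python and matplotlib.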

Additional observations from a re-analysis of the deposited data

Results flagged for a closer look

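Among 112 sets of replicate values (56 named probes, 2 diets), 8 held 1 rat far from the others of its diet by Dixon's criterion, which chance alone gives in about 1 of 20 sets, and 6 of the 8 were cafeteria rat 1. That rat was low for Slc20a1 (-0.55, others 0.11 to 0.22), Slc39a4 (-0.37, others -0.07 to 0.01), Slc15a4 (-0.27, others 0.03 to 0.14) and Slc19a2 (-0.25, others -0.0053 to 0.08). It was high for Slc30a5 (0.45, others 0.21 to 0.25) and Slc37a4 (0.16, others 0.05 to 0.08). Cafeteria rat 13 was low for Slc9a3r1 (-0.44, others -0.17 to -0.07), and control rat 1 was high for Slc29a3 (0.053, others -0.11 to -0.09). Each of these concerns 1 probe of its gene. The array of cafeteria rat 1 had the smallest share of spots above background (58.8%).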

How the results depend on the processing

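Under all 23 alternatives 0 solute carrier probes passed the adjusted threshold, and 33 of 56 named probes kept their sign in every one that measured them. Slc39a14 stayed negative throughout (-1.17 to -0.73), with an adjusted p of 0.202 to 1. The probes at an unadjusted p under 0.05 numbered 6 in the reported setting, 11 under median centring, 10 with the scanner software's ratio, 12 in the authors' values and 14 without a filter, which adds probes (289 tested). The median difference over the solute carriers was 0.056 under median centring and 0.13 in the authors' values, where the median of all probes was also 0.13. With slide as a block, which rests on the slides that held both diets, that median was -0.0098 and 1 of the 6 probes stayed under 0.05. Leaving out each rat in turn gave 3 to 8 such probes, with 3 without control rat 1, and a median of 0.0022 to 0.026. Rats with the same number did not deviate together (correlations -0.177 to 0.127), but so few pairs cannot settle whether the number pairs them. A replicate block takes nothing from cafeteria rat 10, whose number no control shares. It left 5 probes under 0.05, 1 of them among the 6, with a median difference of 0.018. Named differences of up to -0.14 (Slc13a2) and 0.11 (Slc22a12) changed sign, and the cause was not tested. With slide as a block these were Slc4a1ap (-0.035), Slc9a3r1 (-0.12), Slc6a6 (-0.18), Slc8a1 (-0.0024), Slc29a3 (-0.016), Slc15a3 (-0.036), Slc22a12 (-0.011), Slc20a1 (-0.0015), Slc19a1 (-0.016), Slc19a2 (-0.096) and Slc30a5 (-0.087). With Cy5 alone they were Slc9a3r1 (-0.024), Slc13a2 (0.15), Slc10a5 (-0.11), Slc22a12 (-0.057), Slc20a1 (0.018), Slc19a2 (-0.024) and Slc30a5 (-0.034 and 0.031). Median centring turned Slc38a1 (0.000815), Slc38a2 (0.023), Slc19a2 (-0.021) and Slc30a5 (0.086). The authors' values turned Slc38a1 (0.059), Slc38a2 (0.073), Slc13a2 (0.011), Slc20a1 (0.022) and Slc30a5 (0.17), and after centring Slc26a8 (-0.035), Slc20a2 (-0.0198) and Slc30a5 (0.044). Normexp on all spots, chosen after seeing the data, turned Slc19a2 (-0.016). Leaving out a rat gave ranges across 0 for Slc12a2 (-0.11 to 0.023), Slc15a4 (-0.022 to 0.17 and -0.0077 to 0.13), Slc19a1 (-0.014 to 0.058), Slc20a1 (-0.18 to 0.015), Slc30a5 (-0.029 to 0.16, -0.033 to 0.058 and -0.10 to 0.0080), Slc6a6 (-0.084 to 0.12) and Slc9a3r1 (-0.015 to 0.13). With 9 arrays, the unadjusted 95% interval of a typical probe reached 0.21 to either side, and even the difference of -0.85 in Slc39a14 did not pass the adjusted threshold.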

Other observations

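Several carriers varied widely between rats without separating the diets over all rats. Slc24a5, a potassium-dependent sodium calcium exchanger known from melanosomes, was at 0.34, 0.19, -0.61, -0.12 and 0.86 in cafeteria rats 1, 4, 7, 10 and 13, against -0.21, 1.13, -0.15 and 0.27 in control rats 1, 4, 7 and 13. A probe of Slc38a6, of the glutamine carrier family, was at -0.02, 0.85, -0.10, -0.66 and 0.82 in the same cafeteria rats, against 0.76, 0.64, -0.17 and 0.09 in the same controls. The other probes of Slc38a6 did not share that pattern's size, with differences of 0.0077 and 0.09 and smaller SDs within a diet. Within the 2 shared slides the wide-ranging probe differed by -0.78 and -0.75, against -0.15 (SE 0.32) over all rats. On the same slides the other probes gave -0.40 and -0.01, and -0.0067 and 0.28. Slc35c2, a Golgi carrier linked to fucosylation, was at -0.39, 0.10, -0.74, 0.13 and -0.74 in the cafeteria rats, against -0.20, -0.70, -1.09 and 0.33 in the controls. Both diets covered most of the range in each of these genes.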
